A study of Homo sapiens with 156 samples.

Results

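The genes described here are 29 genes by which human cells make, take up, move and export cholesterol, of 59939 genes listed in each deposited table. The list names genes by their role and takes no measured value as a criterion, but it was chosen with earlier results of these data known. It falls into 8 enzymes of the mevalonate arm (ACAT2, HMGCS1, MVK, PMVK, MVD, IDI1, FDPS, GGPS1), 11 of the sterol arm (FDFT1, SQLE, LSS, CYP51A1, TM7SF2, MSMO1, NSDHL, HSD17B7, EBP, SC5D, DHCR7), 4 regulators (INSIG1, INSIG2, SREBF2, SCAP), 3 genes of uptake and intracellular transport (STARD4, NPC1, NPC2) and 3 of efflux and the sterol-sensing LXR response (ABCA1, ABCG1, MYLIP). All 29 were found, by Ensembl identifier and GENCODE 29 symbol, and the 19 enzymes of the first 2 groups are called the synthesis genes below. All 29 reached an FPKM (fragments per kilobase of transcript, scaled to sequencing depth) of 1 in 2 or more libraries of each line and entered the tests, but ABCG1 was below 1 FPKM in every DMSO library of all 3 lines and entered only through treated libraries, so that a difference was built into its passing.

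The RNA came from MV411, THP1 and NOMO1 cells, human acute myeloid leukemia cell lines, in a study of inhibitors of DNMT1, the enzyme that maintains DNA methylation through cell division. Every line had 26 groups of 2 libraries, 52 libraries per line and 156 in all, and the labels name no genotype beyond the line. GSK032 (GSK3685032) and DAC (decitabine, a cytosine analog that is built into DNA and traps DNMT1) were each given at 400 nM for 1, 2, 4 and 6 days and, for 4 days, at 3.2, 16, 80, 400, 2000 and 10000 nM. GSK862 (GSK3484862) at 1000 nM and GSK477 (GSK3510477) at 10000 nM were each sampled on days 2 and 4, and the solvent DMSO on days 1, 2, 4 and 6. Nothing in the labels says that the 2 libraries of a group came from separate cultures, so the p-values measure the spread between libraries, which may be technical.

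Cells build cholesterol from acetyl-CoA through mevalonate and isoprenoid intermediates, which also serve protein prenylation, and then through squalene, lanosterol and a chain of sterols. When membranes of the endoplasmic reticulum are low in sterol, the escort protein SCAP carries SREBP-2, the product of SREBF2, to the Golgi for release of a transcription factor that switches on most synthesis genes, INSIG1, STARD4 and SREBF2 itself, and INSIG proteins hold that complex back when sterol is plentiful. Oxidised sterols instead activate LXR, a nuclear receptor that raises the exporters ABCA1 and ABCG1 and MYLIP, which marks lipoprotein receptors for degradation.

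Promoter stretches are shown for SREBF2, INSIG1, MSMO1 and STARD4, which all fell with DAC in each line below, and for ABCA1, which rose with it in NOMO1. They come from RefSeq (GRCh38.p14), run 5′ to 3′ on the strand of the gene and end at or before the annotated transcription start: SREBF2 chr22:41832958-41833104 on the plus strand, INSIG1 chr7:155297655-155297804 on the plus strand, MSMO1 chr4:165327469-165327618 on the plus strand, STARD4 chr5:111512562-111512711 on the minus strand and ABCA1 chr9:104928249-104928398 on the minus strand. Capitals mark the letters CACNCCAC, the core of the sterol response element bound by SREBP-2, and CCAAT, the box bound by NF-Y, each on either strand.
SREBF2: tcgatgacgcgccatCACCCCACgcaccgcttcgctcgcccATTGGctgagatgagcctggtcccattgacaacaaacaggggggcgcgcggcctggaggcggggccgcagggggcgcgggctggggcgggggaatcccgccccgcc
INSIG1: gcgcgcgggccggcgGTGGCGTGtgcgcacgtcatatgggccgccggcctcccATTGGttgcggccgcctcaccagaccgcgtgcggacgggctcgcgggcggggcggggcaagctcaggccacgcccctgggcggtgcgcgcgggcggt
MSMO1: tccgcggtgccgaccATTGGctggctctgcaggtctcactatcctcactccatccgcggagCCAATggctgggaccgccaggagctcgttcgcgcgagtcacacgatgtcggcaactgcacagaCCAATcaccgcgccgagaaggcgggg
STARD4: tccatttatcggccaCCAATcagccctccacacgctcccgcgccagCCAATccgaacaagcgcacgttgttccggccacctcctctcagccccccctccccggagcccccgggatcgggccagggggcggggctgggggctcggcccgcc
ABCA1: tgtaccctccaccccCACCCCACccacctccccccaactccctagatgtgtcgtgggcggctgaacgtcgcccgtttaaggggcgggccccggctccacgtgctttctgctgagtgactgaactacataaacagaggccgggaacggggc

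In the 250 bases before the start, searched on both strands in 34 windows of the 25 members that RefSeq matched, CCAAT lay before 19 of 25 genes and in 21 of 34 windows, against 32.0% of all 35116 windows. CACNCCAC lay before 5 genes (SREBF2, INSIG1, IDI1, SC5D and ABCA1) and in 5 of 34 windows, against 4.87% of all windows. The longer TCACNCCAC, which contains it, lay before 1 gene (SREBF2) and in 1 of 34 windows, against 0.883%. The Sp1 box GGGCGG lay before 24 of 25 genes and in 31 of 34 windows, against 42.6%. The LXR direct repeat, a pair of AGGTCA spaced by 4 bases, lay before 0 of 25 genes and in 0 of 34 windows, against 0.0142%. A match describes letters only, and the absence of one speaks only of these windows.

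Levels are deposited FPKM values, given for both libraries of a group, and changes are limma estimates against DMSO of the same day, ± 1 standard error, in units of log2(FPKM + 0.5), so that folds of low genes come out too small. A gene is said to have risen or fallen where its adjusted p was below 0.05, and is called where the change was also at least 1 in size. The lines were deposited in separate tables and fitted apart, so no difference between lines was tested, and all comparisons of a day share its 2 DMSO libraries. The FPKM columns, divided by 1000, summed to 1331 to 3073 for MV411, 1263 to 2325 for THP1 and 1312 to 2052 for NOMO1. Of 4 genes of blood-cell identity, CD33, PTPRC and SPI1 were at 22.9 FPKM or more in every library, and ITGAX at 2.21 or more. Among genes of other cell types, CD3E, MS4A1 and HBB stayed below 1 FPKM in every library, and KRT19, EPCAM and CD8A reached 9.16, 7.56 and 3.23 in NOMO1.

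On hg38, by GENCODE 29, the genes described most closely are ACAT2 at chr6:159760328-159779055, HMGCS1 at chr5:43289395-43313512, DHCR7 at chr11:71428193-71452868, INSIG1 at chr7:155297776-155310235, SREBF2 at chr22:41833079-41907308, ABCA1 at chr9:104781002-104928237 and ABCG1 at chr21:42199689-42297244, all of them protein-coding.

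The first question was how the synthesis genes stood after 4 days at 400 nM. In the mevalonate arm, which turns acetyl-CoA into isoprenoid units, 6 of 8 enzymes were called lower with DAC in MV411, 6 in THP1 and 6 in NOMO1, where 3.34%, 1.93% and 5.94% of all genes tested were. With GSK032 4 of 8 were called lower in MV411, 0 in THP1 and 0 in NOMO1, against 2.76%, 0.336% and 0.376% of all genes. At the adjusted p alone, 6 of 8 were lower with GSK032 in THP1 (all genes, 13.8%) and 0 in NOMO1 (8.29%). None was called higher in any of these comparisons.

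In each arm, values per library are given for the 3 enzymes with the largest mean DAC change over the lines in this comparison and the 1 with the smallest. Their DAC changes are therefore the extremes of the arm, and their p-values with DAC come after that choice. ACAT2, the cytosolic thiolase that joins a pair of acetyl-CoA molecules, is shown first, with the values of day 4. MV411 held 81.2 and 89.2 FPKM with DMSO, 40.7 and 26.4 with GSK032 and 16.7 and 15.5 with DAC. THP1 held 45.0 and 45.9 FPKM with DMSO, 27.4 and 26.5 with GSK032 and 17.6 and 15.8 with DAC. NOMO1 held 99.4 and 105 FPKM with DMSO, 97.8 and 100.4 with GSK032 and 22.7 and 22.4 with DAC. Both DAC libraries were below both DMSO libraries in each line, both GSK032 libraries in MV411 and THP1 only, and the GSK032 and DMSO libraries of NOMO1 overlapped. ACAT2 fell with DAC by 2.37 ± 0.18 in MV411, 1.42 ± 0.10 in THP1 and 2.15 ± 0.11 in NOMO1 (limma, adjusted p = 1.3e-11, 1.09e-12 and 9.89e-16). With GSK032 it fell by 1.36 ± 0.18 in MV411 and 0.74 ± 0.10 in THP1 (adjusted p = 4.29e-07 and 9.87e-07), and its change in NOMO1 was −0.04 ± 0.11 (adjusted p = 0.902, 95% interval −0.28 to 0.19).

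HMGCS1 makes HMG-CoA, the precursor of mevalonate. MV411 held 75.3 and 90.5 FPKM with DMSO, 51.4 and 22.7 with GSK032 and 15.5 and 19.3 with DAC. THP1 held 52.6 and 62.1 FPKM with DMSO, 35.7 and 38.9 with GSK032 and 24.4 and 25.7 with DAC. NOMO1 held 223 and 224 FPKM with DMSO, 274 and 273 with GSK032 and 66.6 and 64.3 with DAC. The DAC libraries were below DMSO in each line, the 2 GSK032 libraries of MV411 lay far from each other but below DMSO, and those of NOMO1 lay above DMSO. With DAC HMGCS1 fell by 2.22 ± 0.29 in MV411, 1.18 ± 0.14 in THP1 and 1.77 ± 0.14 in NOMO1 (limma, adjusted p = 3.12e-07, 5.18e-08 and 1.44e-11). With GSK032 the change was −1.26 ± 0.29 (adjusted p = 0.000859) in MV411, −0.61 ± 0.14 (adjusted p = 0.00127) in THP1 and 0.29 ± 0.14 (adjusted p = 0.185) in NOMO1, the last short of the test. In MV411 the GSK032 change was −0.68 without GSK032 replicate 2 and missed the test.

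MVK, mevalonate kinase, adds the first phosphate to mevalonate. MV411 held 17.2 and 17.5 FPKM with DMSO, 12.1 and 8.14 with GSK032 and 4.92 and 4.99 with DAC. THP1 held 13.7 and 15.4 FPKM with DMSO, 7.21 and 9.71 with GSK032 and 5.25 and 4.13 with DAC. NOMO1 held 25.1 and 26.3 FPKM with DMSO, 21.9 and 22.9 with GSK032 and 7.39 and 8.05 with DAC. Each treated library was below each DMSO library of its line. MVK fell with DAC by 1.71 ± 0.19 in MV411, 1.55 ± 0.19 in THP1 and 1.67 ± 0.12 in NOMO1 (limma, adjusted p = 3.53e-08, 1.46e-07 and 7.39e-13) and with GSK032 by 0.77 ± 0.19 in MV411 and 0.76 ± 0.19 in THP1, while in NOMO1 its change with GSK032 was −0.19 ± 0.12 (adjusted p = 0.319).

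GGPS1, which makes the geranylgeranyl unit used to anchor proteins in membranes, had the smallest DAC change of the arm in each line. MV411 held 24.4 and 20.8 FPKM with DMSO, 18.4 and 18.3 with GSK032 and 18.9 and 20.0 with DAC. THP1 held 42.8 and 38.2 FPKM with DMSO, 37.5 and 37.5 with GSK032 and 46.6 and 40.8 with DAC. NOMO1 held 19.7 and 20.9 FPKM with DMSO, 22.2 and 22.1 with GSK032 and 19.5 and 22.2 with DAC. The DAC libraries overlapped those of DMSO in THP1 and NOMO1 and lay below them in MV411. Its changes with DAC were −0.21 ± 0.12, 0.11 ± 0.06 and 0.04 ± 0.09 in that order of lines, none of which passed the test (adjusted p = 0.176, 0.205 and 0.791). The other 4 enzymes were PMVK (phosphomevalonate kinase), MVD (mevalonate decarboxylase), IDI1 (isopentenyl diphosphate isomerase) and FDPS (farnesyl diphosphate synthase), the last with the highest DMSO level of the arm at 308 and 301 FPKM in MV411. Their DAC changes spanned −1.78 to −0.77 (MV411), −1.38 to −0.34 (THP1) and −1.45 to −0.74 (NOMO1). PMVK was the weakest of the 4 in each line, and was at −0.34 ± 0.16 in THP1 (adjusted p = 0.0877).

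In the sterol arm, which runs from squalene to cholesterol, 9 of 11 enzymes were called lower with DAC in MV411, 6 in THP1 and 7 in NOMO1 (all genes, 3.34, 1.93 and 5.94%), and 3, 0 and 0 with GSK032 (all genes, 2.76, 0.336 and 0.376%). At the adjusted p alone, 10 of 11 were lower with GSK032 in THP1 (all genes, 13.8%) and 0 in NOMO1 (8.29%).

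DHCR7, the reductase of the last step to cholesterol, is given first for this arm. MV411 held 25.1 and 28.9 FPKM with DMSO, 18.2 and 8.56 with GSK032 and 4.25 and 3.89 with DAC. THP1 held 16.7 and 17.8 FPKM with DMSO, 8.26 and 11.3 with GSK032 and 4.56 and 6.23 with DAC. NOMO1 held 62.9 and 74.2 FPKM with DMSO, 66.6 and 70.4 with GSK032 and 20.4 and 20.1 with DAC. Both DAC libraries were below DMSO in each line, and in NOMO1 the GSK032 and DMSO libraries overlapped. DHCR7 fell with DAC by 2.59 ± 0.34 in MV411, 1.60 ± 0.21 in THP1 and 1.73 ± 0.14 in NOMO1 (limma, adjusted p = 4.26e-07, 3.16e-07 and 2.09e-11), in MV411 the largest fall among the 29 genes in this comparison. With GSK032 it fell by 1.08 ± 0.34 in MV411 and 0.80 ± 0.21 in THP1, and was at 0.00 ± 0.14 in NOMO1 (adjusted p = 1). The MV411 call with GSK032 was lost without GSK032 replicate 2 (−0.55) and without DMSO replicate 2 (−0.97).

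LSS, lanosterol synthase, makes the first sterol of the pathway. MV411 held 39.3 and 50.7 FPKM with DMSO, 32.8 and 20.2 with GSK032 and 12.2 and 10.3 with DAC. THP1 held 44.9 and 50.2 FPKM with DMSO, 26.1 and 31.6 with GSK032 and 14.6 and 15.7 with DAC. NOMO1 held 55.2 and 59.3 FPKM with DMSO, 53.9 and 53.9 with GSK032 and 14.7 and 14.4 with DAC. Both DAC libraries lay far below DMSO in each line, whereas the GSK032 libraries of NOMO1 lay just below. The falls with DAC were 1.95 ± 0.22 in MV411, 1.61 ± 0.11 in THP1 and 1.94 ± 0.20 in NOMO1 (limma, adjusted p = 2.38e-08, 2.35e-12 and 1.44e-09). With GSK032 the changes were −0.78 ± 0.22 (adjusted p = 0.00506), −0.71 ± 0.11 (adjusted p = 2.06e-05) and −0.09 ± 0.20 (adjusted p = 0.882).

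MSMO1, the oxidase that removes methyl groups from sterols made from lanosterol, acts after CYP51A1 in the chain. MV411 held 36.8 and 41.8 FPKM with DMSO, 27.3 and 16.5 with GSK032 and 13.5 and 10.9 with DAC. THP1 held 39.9 and 49.0 FPKM with DMSO, 24.5 and 27.1 with GSK032 and 18.3 and 16.9 with DAC. NOMO1 held 42.4 and 42.3 FPKM with DMSO, 48.3 and 47.5 with GSK032 and 18.4 and 16.7 with DAC. The DAC libraries were below DMSO in each line, and those of GSK032 below it in MV411 and THP1 and above it in NOMO1. MSMO1 fell with DAC by 1.65 ± 0.24 in MV411, 1.31 ± 0.16 in THP1 and 1.25 ± 0.15 in NOMO1 (limma, adjusted p = 2.5e-06, 7.38e-08 and 3.52e-08), and with GSK032 by 0.87 ± 0.24 in MV411 and 0.77 ± 0.16 in THP1, the NOMO1 value being 0.18 ± 0.15 (adjusted p = 0.516).

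TM7SF2, a sterol reductase, had the smallest DAC change of the sterol arm in MV411 and THP1. MV411 held 20.8 and 21.7 FPKM with DMSO, 21.8 and 14.5 with GSK032 and 19.6 and 19.3 with DAC. THP1 held 15.8 and 14.2 FPKM with DMSO, 13.6 and 15.8 with GSK032 and 14.9 and 14.2 with DAC. NOMO1 held 16.9 and 19.0 FPKM with DMSO, 23.8 and 24.9 with GSK032 and 13.3 and 12.0 with DAC. GSK032 libraries overlapped those of DMSO in MV411 and THP1 and lay above them in NOMO1. With GSK032 its NOMO1 change was 0.43 ± 0.18 (adjusted p = 0.0926). Its change with DAC was −0.13 ± 0.20 (adjusted p = 0.694) in MV411 and −0.05 ± 0.14 (adjusted p = 0.856) in THP1, with a fall of 0.49 ± 0.18 in NOMO1. The other 7 enzymes were FDFT1 and SQLE, which make and oxidise squalene, the demethylating enzymes CYP51A1, NSDHL and HSD17B7, the isomerase EBP and the desaturase SC5D, and their DAC changes spanned −1.65 to −0.59 (MV411), −1.25 to −0.59 (THP1) and −1.50 to −0.34 (NOMO1). SQLE, often called the second control point of the pathway, had unlike values in MV411 and NOMO1. MV411 held 100.3 and 98.1 FPKM with DMSO, 69.0 and 42.7 with GSK032 and 31.4 and 31.3 with DAC. NOMO1 held 104 and 107 FPKM with DMSO, 114 and 115 with GSK032 and 77.8 and 89.3 with DAC. SQLE fell with DAC by 1.65 ± 0.20 in MV411, 1.05 ± 0.12 in THP1 and 0.34 ± 0.08 in NOMO1, where it was the smallest fall of the 11 with −0.19 ± 0.08 (adjusted p = 0.0379) at 10000 nM. SQLE was singled out after its values were seen.

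**Figure D1:**
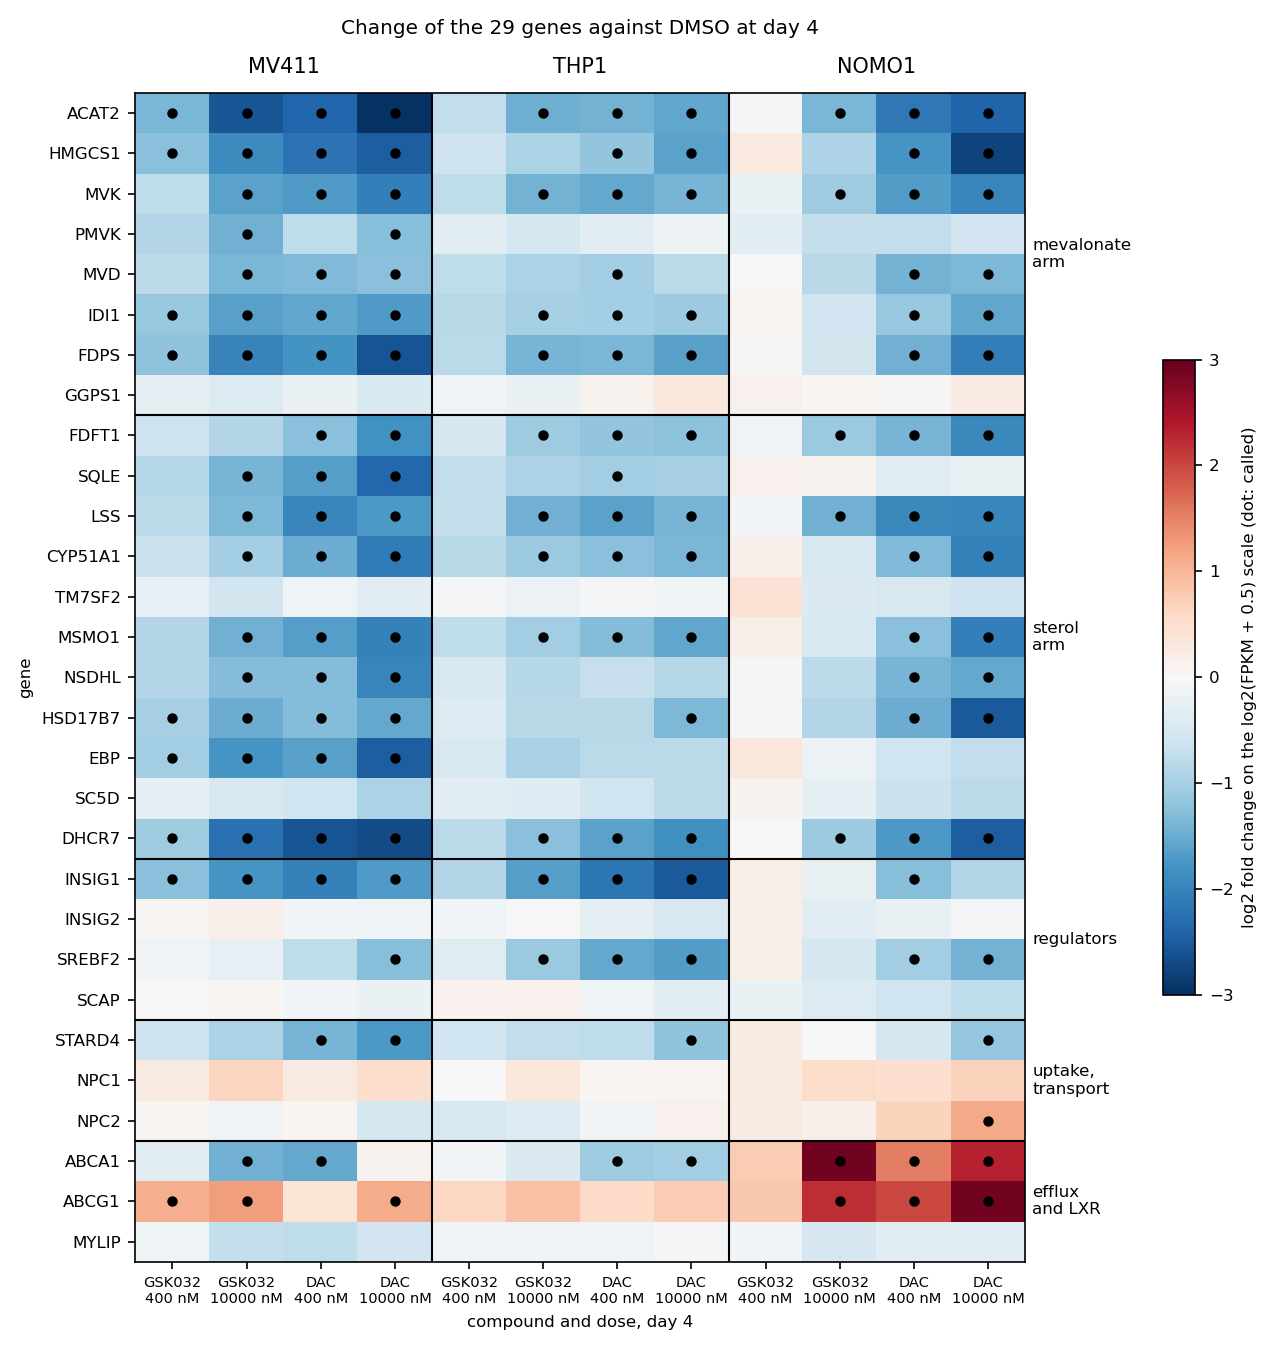
Log2 fold change against DMSO at day 4 (colour, on the log2(FPKM + 0.5) scale) of the 29 genes (vertical axis, grouped by role) for GSK032 and DAC at 400 and 10000 nM in each line (horizontal axis); dots mark called changes. Most synthesis genes, INSIG1 and SREBF2 are blue with DAC in each line, these genes are near white with GSK032 at 400 nM in NOMO1, and ABCA1 is blue with DAC in THP1 and red in NOMO1. ABCG1 passed the filter only through treated libraries, so its dots are a description.

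Over both arms, 15 of 19 synthesis genes were called lower with DAC in MV411, 12 in THP1 and 13 in NOMO1, with median changes of −1.55, −1.05 and −1.39, beside medians of all genes tested of 0.00, −0.03 and 0.00. The same 11 synthesis genes were called lower in all 3 lines (ACAT2, HMGCS1, MVK, MVD, IDI1, FDPS, FDFT1, LSS, CYP51A1, MSMO1 and DHCR7), and INSIG1 with them. The share of all genes called lower in all 3 lines was not computed. With GSK032 the counts were 7, 0 and 0 and the medians −0.87, −0.71 and 0.03, against medians of 0.00 for all genes in each line. At the adjusted p alone, 16 of 19 were lower with GSK032 in MV411 (all genes, 17.3%), 16 in THP1 and 0 in NOMO1. The 2 GSK032 libraries of MV411 did not agree in size: without replicate 1 the count of 7 became 14, and without replicate 2 it became 1. After rescaling the MV411 libraries to equal sums it was also 1, a step that moved the median of all genes by 0.25 and turned 607 lower and 1442 higher calls into 257 and 2257; the same rescaling of THP1 took the median gene with DAC from −0.03 to −0.34, 449 lower and 1446 higher calls to 1549 and 1013, and the count of 12 to 15. In cultures of whole cells, fewer cells of one kind and less RNA per cell cannot be told apart.

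Markers of dividing and of maturing myeloid cells were read beside these genes. A list of 10 mitosis genes summed to 717 to 740.5 FPKM in the DMSO libraries of MV411, 277 to 332 with GSK032 and 274 to 318 with DAC; in THP1 to 657 to 729, 491 to 543 and 439 to 506; and in NOMO1 to 715 to 719.7, 654 to 669 and 569 to 598. Of these, 10 were called lower with DAC in MV411, 1 in THP1 and 0 in NOMO1, and 9, 0 and 0 with GSK032, against the shares of all genes called lower given above. A list of 12 monocyte and macrophage genes summed to 727 to 857, 3122 to 3414 and 1929.8 to 2332 FPKM in MV411 with DMSO, GSK032 and DAC. For THP1 its sums were 410.1 to 422, 526 to 618 and 1296 to 1394, and for NOMO1 17309.7 to 17542, 27457 to 27642 and 12373 to 14134. A few genes carry these sums, which do not describe the 12 as a set. Over all MV411 libraries the median of LYZ was 1546 FPKM and that of CD68 41.8. In NOMO1 the medians of S100A9, LYZ and S100A8 were 9248, 4378 and 4063 FPKM. Of this list, 3 of 10 tested were called higher with DAC in MV411 (all genes, 6.86%) and 6 of 11 in THP1 (6.23%). In NOMO1 4 of 12 were called higher (all genes, 13.2%) and 1 lower (5.94%). With GSK032 4, 2 and 3 were called higher (all genes, 6.55, 1.94 and 2.55%) and 0 lower, and the part of either list in the sterol result was not tested. In NOMO1, a list of 8 T-cell, B-cell, erythroid and epithelial genes summed to 1.88 to 2.24 FPKM with DMSO and 9.05 to 11.5 with DAC.

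GSK032 and DAC were compared directly at the 6 doses of day 4 and the other 3 days, with p-values adjusted over all genes of each comparison. At 400 nM on day 4, 3 of 19 synthesis genes were called higher with GSK032 than with DAC in MV411 (all genes, 0.682%), 0 in THP1 (1.54%) and 13 in NOMO1 (3.5%), and none was called lower in any line. In THP1 12 of 19 were higher with GSK032 at the adjusted p alone (all genes, 10.1%). The NOMO1 difference spanned 0.09 to 2.11 over the 19, with a median of 1.42, and was 2.11 ± 0.11 for ACAT2, 2.06 ± 0.14 for HMGCS1 and 1.85 ± 0.20 for LSS, which were chosen for their DAC changes. In THP1 the difference for LSS was 0.90 ± 0.11 (adjusted p = 6.42e-07) and for SQLE 0.32 ± 0.12 (adjusted p = 0.0476, 95% interval 0.08 to 0.56). In MV411 the count differed by dose, with 10 of 19 called higher with GSK032 at 80 nM (all genes, 0.573%), 0 at 2000 nM (3.81%) and 1 at 10000 nM (5.68%). At 10000 nM the HMGCS1 difference in MV411 was 0.56 ± 0.29 (95% interval −0.03 to 1.14, adjusted p = 0.128), and in NOMO1 7 of 19 were still called higher with GSK032 (all genes, 6.07%), after 2 at 16 nM, 10 at 80 nM and 9 at 2000 nM (all genes, 0.246, 2.09 and 4.46%). In THP1 none was called higher at any of the 6 doses. The share of all genes is given there for 400 nM only, so the absence of calls at the other doses stands without one. At 400 nM on the other days, 0 were called higher on day 1 in MV411, THP1 and NOMO1 (all genes, 0.00909, 0 and 0.0385%). On day 2 the counts were 7, 0 and 0 (all genes, 0.164, 0.0258 and 0.25%), and on day 6 they were 0, 0 and 11 (all genes, 1.34, 0.594 and 6.35%).

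Among the regulators, INSIG1 fell beside the enzymes and INSIG2 did not pass the test. INSIG1, the sterol-sensitive anchor of the SREBP complex, comes first. MV411 held 184 and 215 FPKM with DMSO, 114 and 61.2 with GSK032 and 48.6 and 48.1 with DAC. THP1 held 101 and 135 FPKM with DMSO, 59.0 and 67.6 with GSK032 and 26.0 and 24.8 with DAC. NOMO1 held 68.8 and 78.0 FPKM with DMSO, 81.8 and 85.1 with GSK032 and 27.0 and 33.2 with DAC. With DAC both libraries were below DMSO in each line, and with GSK032 above it in NOMO1. INSIG1 fell with DAC by 2.03 ± 0.25 in MV411, 2.17 ± 0.15 in THP1 and 1.28 ± 0.14 in NOMO1 (limma, adjusted p = 1.15e-07, 1.22e-12 and 5.98e-09), in THP1 the largest fall of the 29 genes. With GSK032 it fell by 1.24 ± 0.25 in MV411, without whose second GSK032 library the change was −0.80, and by 0.88 ± 0.15 in THP1, and it was at 0.19 ± 0.14 in NOMO1 (adjusted p = 0.439). INSIG2, a relative that also retains the complex, was measured at lower levels than INSIG1. MV411 held 7.26 and 6.27 FPKM with DMSO, 7.00 and 7.30 with GSK032 and 5.82 and 6.98 with DAC. THP1 held 7.13 and 6.05 FPKM with DMSO, 7.36 and 5.16 with GSK032 and 5.69 and 4.89 with DAC. NOMO1 held 9.72 and 6.55 FPKM with DMSO, 9.61 and 8.43 with GSK032 and 7.14 and 6.41 with DAC. The DMSO and DAC libraries overlapped in MV411 and NOMO1, and in THP1 those of DAC lay below. Its changes with DAC were −0.08 ± 0.18, −0.29 ± 0.17 and −0.22 ± 0.28 (adjusted p = 0.813, 0.175 and 0.557).

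SREBF2, the gene of the transcription factor itself, is one of its own targets. MV411 held 53.3 and 66.0 FPKM with DMSO, 58.8 and 50.9 with GSK032 and 34.9 and 34.1 with DAC. THP1 held 60.0 and 66.5 FPKM with DMSO, 50.1 and 47.6 with GSK032 and 21.4 and 21.6 with DAC. NOMO1 held 44.0 and 43.1 FPKM with DMSO, 51.4 and 46.7 with GSK032 and 23.5 and 18.3 with DAC. The DAC libraries were below DMSO in all 3 lines, the GSK032 libraries in THP1 only. SREBF2 fell with DAC by 0.77 ± 0.12 in MV411, 1.53 ± 0.10 in THP1 and 1.05 ± 0.13 in NOMO1 (limma, adjusted p = 9.04e-06, 4.15e-13 and 8.5e-08), and the NOMO1 change missed the size needed for a call without DAC replicate 2 (−0.88), with libraries rescaled to equal sums (−0.95) and by median ratio (−0.93). With GSK032 it fell by 0.37 ± 0.10 in THP1, with values of −0.12 ± 0.12 (adjusted p = 0.526) in MV411 and 0.17 ± 0.13 (adjusted p = 0.47) in NOMO1. SCAP escorts the factor out of the endoplasmic reticulum. MV411 held 32.8 and 30.9 FPKM with DMSO, 33.5 and 29.4 with GSK032 and 30.4 and 29.8 with DAC. THP1 held 32.3 and 33.4 FPKM with DMSO, 35.1 and 36.4 with GSK032 and 29.4 and 31.7 with DAC. NOMO1 held 32.9 and 38.9 FPKM with DMSO, 30.0 and 31.9 with GSK032 and 23.7 and 23.3 with DAC. In NOMO1 both DAC libraries were below both of DMSO, and in MV411 and THP1 the distances were small. SCAP fell with DAC by 0.60 ± 0.09 in NOMO1, and its values in MV411 and THP1 were −0.08 ± 0.09 (adjusted p = 0.544) and −0.10 ± 0.08 (adjusted p = 0.336).

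Of the genes that move cholesterol inside cells, STARD4 fell beside the enzymes, while NPC1 and NPC2, which pass cholesterol out of lysosomes, had no fall with 400 nM DAC on day 4 that passed the test. STARD4 carries sterol between membranes. MV411 held 18.5 and 21.1 FPKM with DMSO, 16.1 and 9.99 with GSK032 and 6.59 and 7.81 with DAC. THP1 held 27.5 and 29.6 FPKM with DMSO, 18.8 and 18.4 with GSK032 and 16.8 and 16.6 with DAC. NOMO1 held 41.2 and 41.6 FPKM with DMSO, 49.1 and 49.4 with GSK032 and 28.6 and 29.5 with DAC. The DAC libraries were below DMSO in each line, and the GSK032 libraries below it in MV411 and THP1 and above it in NOMO1. STARD4 fell with DAC by 1.4 ± 0.17 in MV411, 0.75 ± 0.06 in THP1 and 0.50 ± 0.12 in NOMO1 (limma, adjusted p = 1.67e-07, 1.16e-10 and 0.000762), called in MV411 alone, and with GSK032 by 0.61 ± 0.17 in MV411 and 0.60 ± 0.06 in THP1. NPC1 is the lysosomal membrane protein of the pair. MV411 held 16.8 and 17.7 FPKM with DMSO, 21.6 and 20.0 with GSK032 and 19.8 and 22.0 with DAC. THP1 held 14.4 and 16.5 FPKM with DMSO, 16.8 and 14.5 with GSK032 and 17.0 and 15.4 with DAC. NOMO1 held 9.76 and 8.70 FPKM with DMSO, 11.2 and 11.2 with GSK032 and 12.8 and 13.6 with DAC. NPC1 rose with DAC by 0.27 ± 0.09 in MV411 and 0.49 ± 0.07 in NOMO1, in both of which both DAC libraries were above both of DMSO, and was at 0.07 ± 0.08 (adjusted p = 0.565) in THP1. NPC2 is the soluble carrier that hands cholesterol to it. MV411 held 30.1 and 25.5 FPKM with DMSO, 31.7 and 26.4 with GSK032 and 28.9 and 28.6 with DAC. THP1 held 48.6 and 42.9 FPKM with DMSO, 30.0 and 35.2 with GSK032 and 44.7 and 41.3 with DAC. NOMO1 held 70.7 and 66.8 FPKM with DMSO, 85.3 and 79.1 with GSK032 and 104 and 116 with DAC. The groups overlapped in MV411, the GSK032 libraries were below DMSO in THP1, and in NOMO1 all treated libraries were above DMSO. NPC2 rose in NOMO1 by 0.67 ± 0.08 with 400 nM DAC and by 1.14 ± 0.08 with 10000 nM, fell in THP1 by 0.48 ± 0.08 with GSK032, and stood in MV411 at 0.05 ± 0.17 (adjusted p = 0.884) with DAC. On day 2 NPC2 in THP1 was at 63.5 and 64.1 FPKM with DMSO and 42.9 and 37.4 with 400 nM DAC. That was a fall of 0.66 ± 0.08 (adjusted p = 1.07e-06), after one of 0.34 ± 0.08 on day 1 (adjusted p = 0.0262), and with DAC on day 6 NPC2 was at −0.10 ± 0.08 (adjusted p = 0.351).

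ABCA1 fell with DAC in MV411 and THP1 and rose in NOMO1, while ABCG1 was above DMSO in each line. ABCA1, which loads cholesterol onto lipid-poor apolipoprotein, is given first. MV411 held 2.78 and 2.22 FPKM with DMSO, 1.91 and 1.92 with GSK032 and 0.563 and 0.513 with DAC. THP1 held 23.7 and 21.5 FPKM with DMSO, 22.0 and 20.3 with GSK032 and 10.4 and 10.5 with DAC. NOMO1 held 2.02 and 2.14 FPKM with DMSO, 3.66 and 4.16 with GSK032 and 6.87 and 6.95 with DAC. With DAC both libraries were below DMSO in MV411 and THP1 and above it in NOMO1. ABCA1 fell with DAC by 1.53 ± 0.23 in MV411 (adjusted p = 4.13e-06) and 1.07 ± 0.12 in THP1 (adjusted p = 4.1e-08), and rose by 1.52 ± 0.14 in NOMO1 (adjusted p = 8.09e-11). With GSK032 it rose by 0.77 ± 0.14 in NOMO1 and was at −0.31 ± 0.23 (adjusted p = 0.34) in MV411 and −0.09 ± 0.12 (adjusted p = 0.694) in THP1.

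ABCG1, which exports cholesterol to high-density lipoprotein, was low in every DMSO library. MV411 held 0.190 and 0.167 FPKM with DMSO, 0.928 and 0.973 with GSK032 and 0.302 and 0.498 with DAC. THP1 held 0.665 and 0.687 FPKM with DMSO, 1.24 and 1.38 with GSK032 and 1.18 and 1.3 with DAC. NOMO1 held 0.487 and 0.583 FPKM with DMSO, 1.13 and 1.54 with GSK032 and 3.12 and 4.20 with DAC. Every treated library was above every DMSO library of its line, at low levels in MV411 and THP1. Because ABCG1 entered the tests only through treated libraries, its changes are given as a description. With GSK032 they were 1.1 ± 0.16 in MV411, 0.62 ± 0.13 in THP1 and 0.82 ± 0.21 in NOMO1. The MV411 value became 0.73 with a pseudocount of 1. With DAC they were 0.40 ± 0.16 in MV411, 0.56 ± 0.13 in THP1 and 2.00 ± 0.21 in NOMO1. MYLIP is the ligase that targets lipoprotein receptors. MV411 held 21.5 and 22.0 FPKM with DMSO, 21.6 and 17.9 with GSK032 and 13.0 and 12.2 with DAC. THP1 held 9.28 and 9.22 FPKM with DMSO, 8.33 and 8.73 with GSK032 and 8.49 and 8.75 with DAC. NOMO1 held 20.5 and 19.7 FPKM with DMSO, 20.0 and 18.1 with GSK032 and 15.6 and 16.0 with DAC. The DAC libraries were below DMSO in each line, by the most in MV411. MYLIP fell with DAC by 0.76 ± 0.13 in MV411 and 0.34 ± 0.10 in NOMO1, and was at −0.10 ± 0.07 (adjusted p = 0.28) in THP1.

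The next question was at which dose the synthesis genes were called lower by day 4. A call needs a change of at least 1, so a count of 0 does not mean that levels equalled those of DMSO. The values of HMGCS1 in NOMO1 below include smaller shifts, downwards with DAC and upwards with GSK032, at doses without a called gene. With DAC in MV411, 0, 4, 12, 15, 16 and 16 of 19 were called lower at 3.2, 16, 80, 400, 2000 and 10000 nM, where 0.223, 0.386, 0.713, 3.34, 9.28 and 12.5% of all genes were. In THP1 DAC gave 0, 0, 1, 12, 11 and 11 at those doses (all genes, 0.00431, 0.0517, 0.336, 1.93, 4.61 and 5.49%), and in NOMO1 0, 0, 6, 13, 13 and 13 (all genes, 0.00963, 0.135, 2.41, 5.94, 7.88 and 9.43%). With GSK032 the counts were 0, 0, 0, 7, 14 and 15 in MV411 (all genes, 0, 0.0364, 0.345, 2.76, 6.01 and 7.68%), 0, 0, 0, 0, 8 and 9 in THP1 (all genes, 0, 0, 0.0172, 0.336, 1.47 and 2.75%) and 0, 0, 0, 0, 0 and 5 in NOMO1 (all genes, 0.00482, 0.00482, 0.0144, 0.376, 1.08 and 3.21%). DAC thus reached its first called enzymes at 16 nM in MV411 and 80 nM in THP1 and NOMO1, and GSK032 at 400, 2000 and 10000 nM in MV411, THP1 and NOMO1. Of the 19, the lowest dose from which a gene was called at that and every higher dose of DAC was 16 nM for 4, 80 nM for 8, 400 nM for 3 and 2000 nM for 1 in MV411, with none found for 3. At 10000 nM, 11 synthesis genes were called lower in all 3 lines with DAC and 4 with GSK032 (ACAT2, MVK, LSS and DHCR7). The counts by lowest dose and over all 3 lines were not made for all genes, so no share stands beside them.

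**Figure D2:**
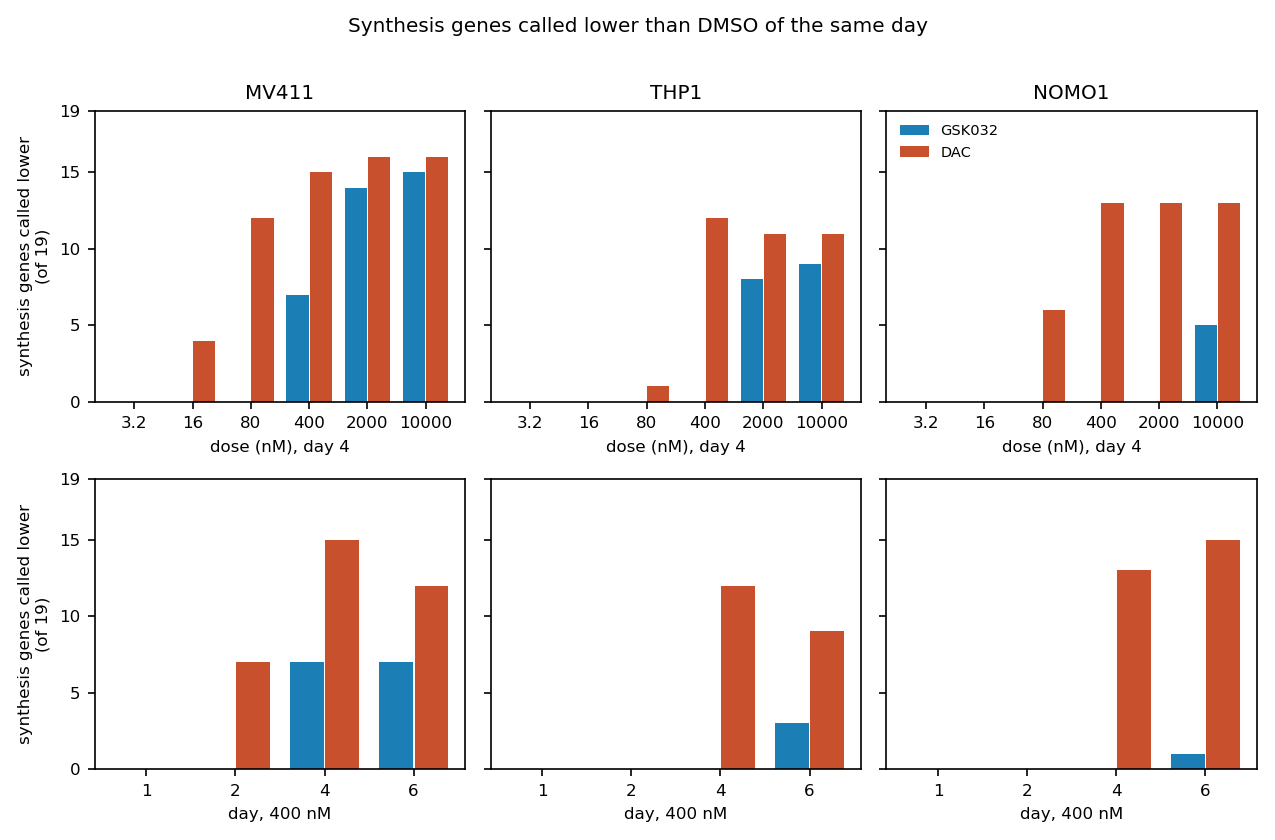
Number of the 19 synthesis genes called lower than DMSO of the same day (bar height, from 0) by dose at day 4 (upper row) and by day at 400 nM (lower row) in each line, for GSK032 and DAC. DAC bars start at 16 nM in MV411 and at 80 nM in THP1 and NOMO1, and GSK032 bars at 400, 2000 and 10000 nM.

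HMGCS1 shows the range within a line. In NOMO1 its DAC libraries were at 150.3 and 162 FPKM at 3.2 nM, 150.2 and 132 FPKM at 16 nM, 104 and 81.2 FPKM at 80 nM, 44.5 and 42.2 FPKM at 2000 nM and 31.1 and 33.4 FPKM at 10000 nM, each pair below the pair before and all below DMSO. Its GSK032 libraries were at 283 and 348 FPKM at 80 nM, 155 and 129 FPKM at 2000 nM and 113 and 121 FPKM at 10000 nM, above DMSO at the first and below it at the others. HMGCS1 fell there by 2.78 ± 0.14 with 10000 nM DAC and 0.93 ± 0.14 with 10000 nM GSK032. In MV411 the DAC libraries were already at 31.3 and 30.1 FPKM at 16 nM and 19.2 and 18.3 at 80 nM, against 15.4 and 13.8 at 10000 nM.

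INSIG1 had its lowest DAC libraries below the top dose in MV411 and NOMO1, but not in THP1. In MV411 it was at 47.8 and 41.1 FPKM at 80 nM, 48.6 and 48.1 FPKM at 400 nM, 76.2 and 52.8 FPKM at 2000 nM and 73.0 and 50.1 FPKM at 10000 nM, and in NOMO1 at 36.2 and 43.2 FPKM at 80 nM, 27.0 and 33.2 FPKM at 400 nM, 34.1 and 34.3 FPKM at 2000 nM and 36.9 and 42.6 FPKM at 10000 nM. Its fall was 1.28 ± 0.14 at 400 nM and 0.88 ± 0.14 at 10000 nM in NOMO1, and 2.17 ± 0.15 and 2.51 ± 0.15 in THP1; the difference between doses was not tested. SREBF2 fell by 1.27 ± 0.12, 1.69 ± 0.10 and 1.42 ± 0.13 with 10000 nM DAC in MV411, THP1 and NOMO1, and was called in each. With 10000 nM GSK032 it fell by 1.11 ± 0.10 in THP1 and 0.52 ± 0.13 in NOMO1, and was at −0.25 ± 0.12 (adjusted p = 0.0955) in MV411. STARD4 was called lower with 10000 nM DAC in all lines, by 1.73 ± 0.17, 1.21 ± 0.06 and 1.17 ± 0.12.

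ABCA1 took a different course in each line. In NOMO1 its GSK032 libraries were at 2.30 and 2.46 FPKM at 80 nM, 3.66 and 4.16 FPKM at 400 nM, 9.08 and 9.74 FPKM at 2000 nM and 16.6 and 21.2 FPKM at 10000 nM, and its DAC libraries at 4.15 and 3.96 FPKM at 80 nM, 6.87 and 6.95 FPKM at 400 nM, 8.29 and 8.50 FPKM at 2000 nM and 12.3 and 12.2 FPKM at 10000 nM. It rose there by 2.90 ± 0.14 with 10000 nM GSK032 and 2.30 ± 0.14 with 10000 nM DAC, against 9.21% and 16.1% of all genes called higher. In MV411 the DAC libraries were at 2.53 and 2.18 FPKM at 16 nM, 0.648 and 0.713 FPKM at 80 nM, 0.563 and 0.513 FPKM at 400 nM, 1.44 and 1.84 FPKM at 2000 nM and 2.67 and 2.81 FPKM at 10000 nM, so that the level was lowest at 400 nM, and at the top dose, next to DMSO at 2.78 and 2.22, its change was 0.12 ± 0.23 (95% interval −0.36 to 0.59, adjusted p = 0.725). The GSK032 libraries of MV411 were at 1.91 and 1.92 FPKM at 400 nM, 0.815 and 0.659 FPKM at 2000 nM and 0.609 and 0.595 FPKM at 10000 nM, a fall of 1.44 ± 0.23 at 10000 nM. The direct difference between GSK032 and DAC at 10000 nM in MV411 was −1.56 ± 0.23 (adjusted p = 3.17e-06). The changes of ABCG1 at 10000 nM are given as a description, in the order MV411, THP1, NOMO1. They were 1.25 ± 0.16, 0.87 ± 0.13 and 2.20 ± 0.21 with GSK032 and 1.12 ± 0.16, 0.75 ± 0.13 and 2.90 ± 0.21 with DAC.

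**Figure D3:**
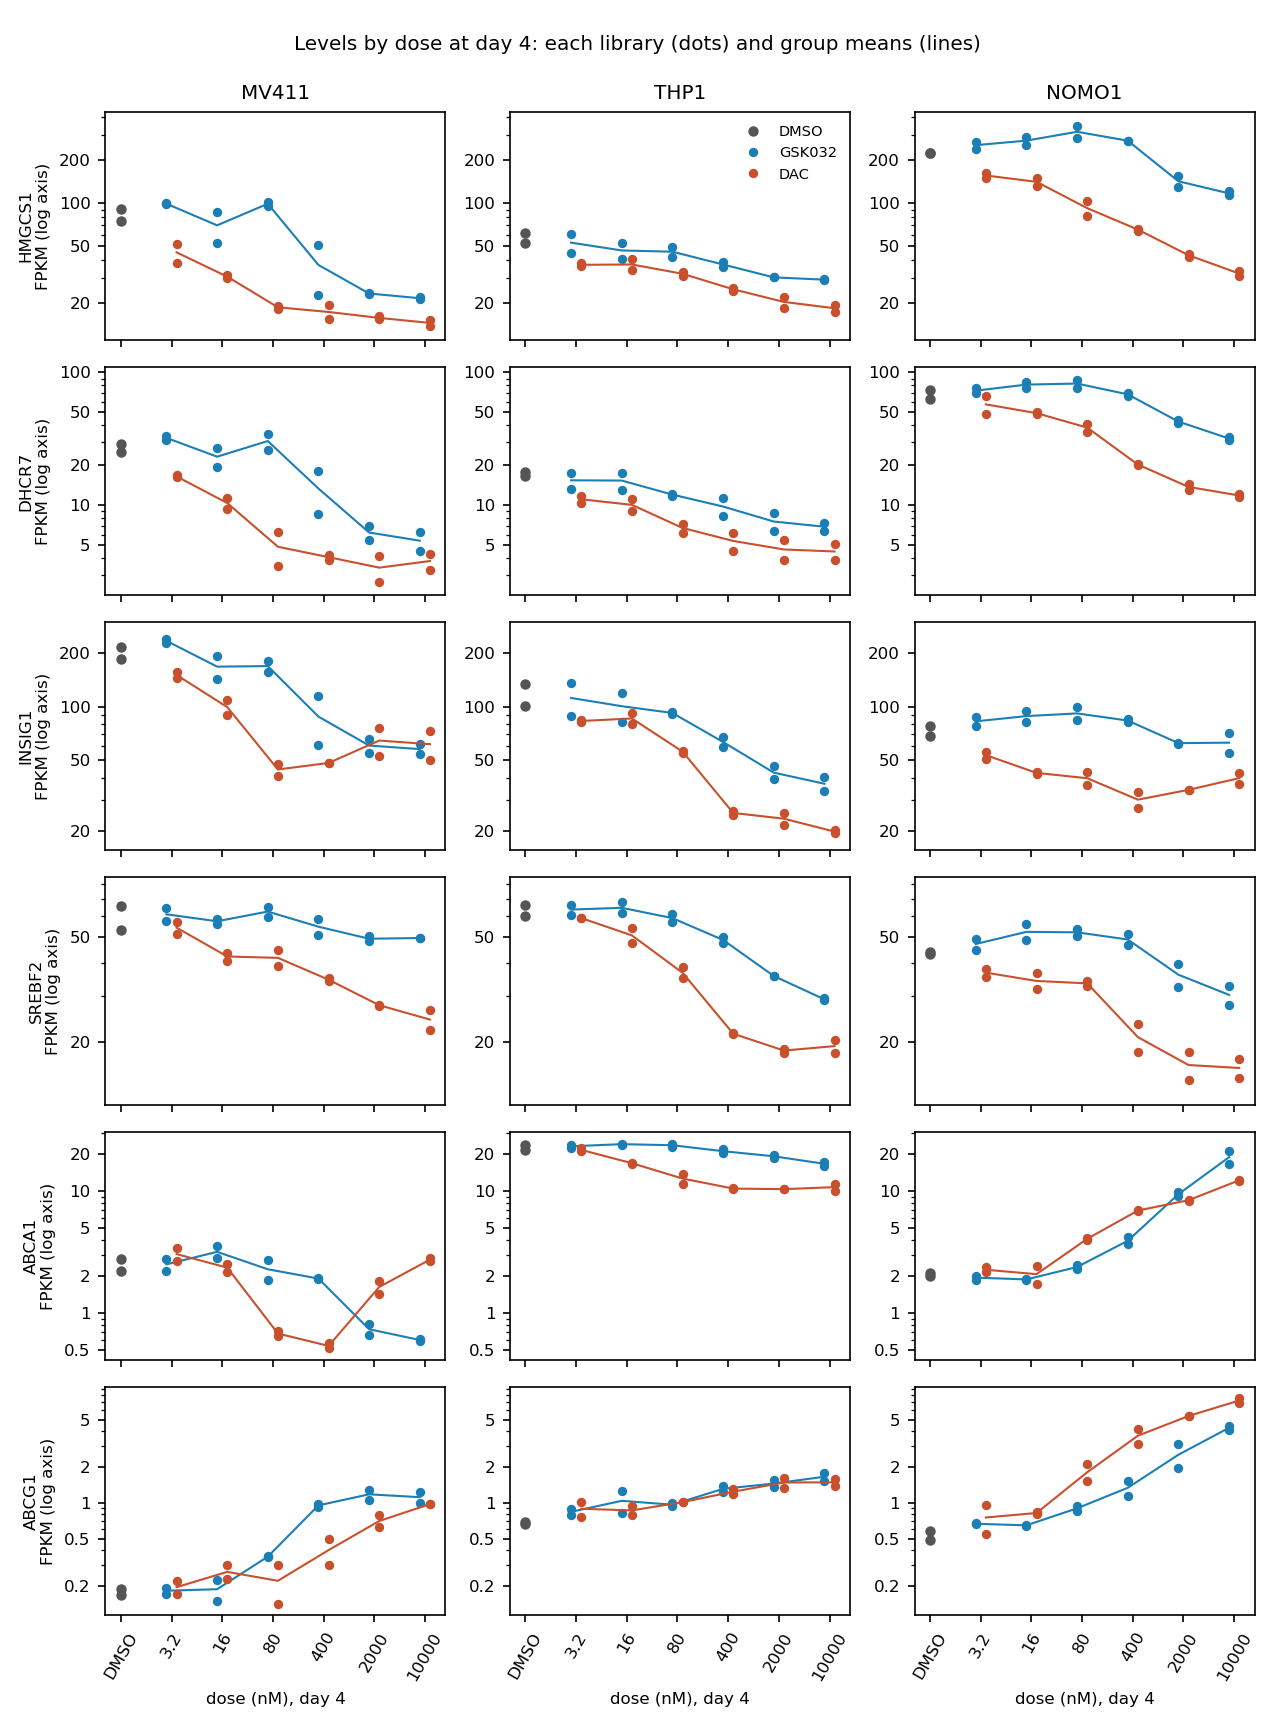
FPKM (vertical log axis) of HMGCS1, DHCR7, INSIG1, SREBF2, ABCA1 and ABCG1 against dose at day 4 in each line, with each library as a dot and group means joined by lines. HMGCS1 and DHCR7 decline at lower doses of DAC than of GSK032, and ABCA1 climbs with dose in NOMO1, declines in THP1 with DAC and has its lowest DAC level at 400 nM in MV411.

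At 400 nM the synthesis genes were followed over days 1, 2, 4 and 6. With DAC 0, 7, 15 and 12 of 19 were called lower in MV411 (all genes on days 1, 2 and 6, 0.0545, 0.273 and 3.9%), 0, 0, 12 and 9 in THP1 (0.0387, 0.112 and 3.84%) and 0, 0, 13 and 15 in NOMO1 (0.0289, 0.361 and 9.75%). With GSK032 the counts were 0, 0, 7 and 7, 0, 0, 0 and 3 and 0, 0, 0 and 1 (all genes on those days, 0, 0.0818 and 4.23%, 0.00861, 0.0474 and 0.788% and 0.00963, 0.0433 and 0.987%). Set against its own day 1, the effect of day 6 was lower by at least 1 (adjusted p below 0.05) for 8 synthesis genes with GSK032 and 5 with DAC in MV411, for 1 and 6 with THP1 cells, and for 1 and 13 with NOMO1 cells (all genes, 4.19, 3.07, 0.586, 2.52, 0.737 and 8.03%). The 2 DMSO libraries of day 6 in MV411 stood apart, with replicate 2 above replicate 1 for 17 of the 19 and a median ratio of 1.58, as for ACAT2 at 72.7 and 113 FPKM. Without DMSO replicate 2 of that day the MV411 counts of 8 and 5 both became 1, and without replicate 1 both became 10. The counts called lower on day 6 itself, 7 with GSK032 and 12 with DAC, became 4 and 8 without replicate 2 and 12 and 15 without replicate 1. In MV411 calls with DAC began on day 2, and ACAT2 stood at 43.7 and 41.8 FPKM on day 1 and 38.1 and 34.0 on day 2, against 64.2 and 74.0 and 88.8 and 83.0 with DMSO, falls of 0.68 ± 0.18 and 1.24 ± 0.18. In THP1 ACAT2 was at −0.19 ± 0.10 (adjusted p = 0.242) on day 2, and by day 4 it had fallen by 1.42 ± 0.10. In NOMO1 ACAT2 was at 14.4 and 15.3 FPKM with DAC on day 6 against 109.6 and 116 with DMSO, a fall of 2.88 ± 0.11. GSK032 at 400 nM, which lowered no synthesis gene in NOMO1 on day 4 at the adjusted p, did so for 14 of 19 on day 6 (all genes, 14%), ACAT2 by 0.81 ± 0.11 and LSS by 1.24 ± 0.20. The 2 libraries of that group were apart, at 18.5 and 37.2 FPKM for LSS, against 62.6 and 63.0 with DMSO.

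The levels of these genes differed between days with DMSO as well, so each treated group above was set against DMSO of its own day. In NOMO1 HMGCS1 was at 121 and 120.1 FPKM with DMSO on day 1, 186 and 148 on day 2, 223 and 224 on day 4 and 257 and 258 on day 6, a rise of 1.09 ± 0.14. From day 1 to day 6, 15 of 19 synthesis genes rose in NOMO1 with DMSO at the adjusted p (all genes, 2.63%), 1 in THP1 (2.84%) and 0 in MV411 (6.16%). In MV411 the DMSO libraries of day 6 lay far from each other for HMGCS1, at 49.7 and 85.9 FPKM. Those of day 4 were at 75.3 and 90.5, above the 45.3 and 41.9 of day 1 and the 61.6 and 53.2 of day 2.

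ABCA1 and ABCG1 were followed to day 6 as well. ABCA1 in NOMO1 was at 2.54 and 2.65 FPKM with DAC on day 2 and 14.6 and 15.8 on day 6, against 1.69 and 2.44 with DMSO, a rise of 2.63 ± 0.14 on day 6, and rose with GSK032 by 1.2 ± 0.14. In MV411 it fell on day 6 by 1.91 ± 0.23 with GSK032 and 1.84 ± 0.23 with DAC, while with DMSO it rose from 1.04 and 0.690 FPKM on day 1 to 4.39 and 3.07 on day 6, by 1.62 ± 0.23. In THP1 it fell on day 6 by 0.62 ± 0.12 with GSK032 and 0.53 ± 0.12 with DAC. ABCG1 was at 1.93 and 1.41 FPKM with GSK032 on day 6 in MV411 and at 6.00 and 7.28 with DAC in NOMO1. Its changes there, given as a description, were 1.28 ± 0.16 and 2.64 ± 0.21.

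**Figure D4:**
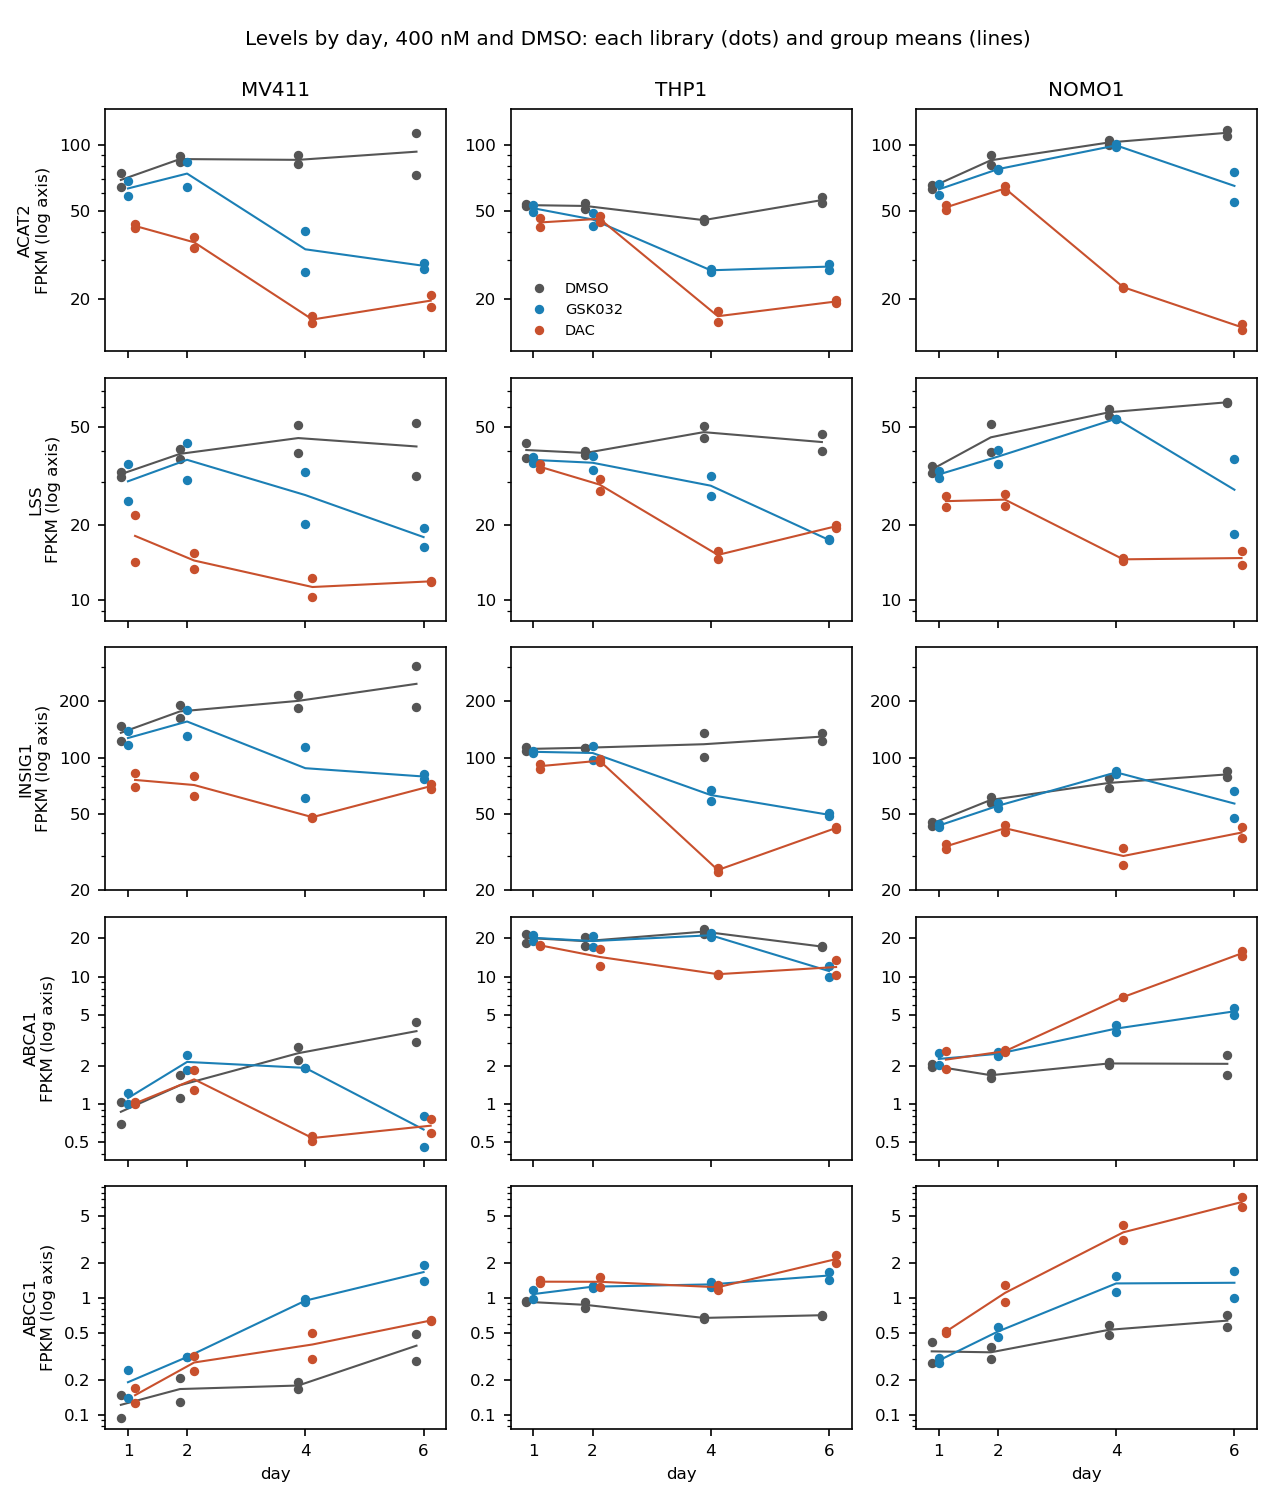
FPKM (vertical log axis) of ACAT2, LSS, INSIG1, ABCA1 and ABCG1 on days 1, 2, 4 and 6 with DMSO, 400 nM GSK032 and 400 nM DAC in each line, with each library as a dot and group means joined by lines. ACAT2 and LSS are below DMSO with DAC from day 1 in MV411, and ABCA1 parts from DMSO upwards in NOMO1 and downwards in MV411 and THP1.

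GSK862 was given at a dose that no other compound shared, so its values against DMSO stand beside the others without a comparison. On day 4, GSK862 at 1000 nM gave 10 of 19 synthesis genes called lower in MV411 (all genes, 1.17%), 0 in THP1 (0.142%) and 0 in NOMO1 (0.467%), and at the adjusted p alone 17, 9 and 0 (all genes, 11.6, 5.96 and 7.37%). HMGCS1 fell with it by 1.70 ± 0.29 in MV411 and 0.44 ± 0.14 in THP1, INSIG1 by 1.49 ± 0.25 and 0.57 ± 0.15, and HMGCS1 was at 0.11 ± 0.14 (adjusted p = 0.715) in NOMO1. ABCA1 rose by 0.73 ± 0.14 in NOMO1. The changes of ABCG1, given as a description, were 0.87 ± 0.16, 0.57 ± 0.13 and 0.87 ± 0.21 in MV411, THP1 and NOMO1. GSK477 at 10000 nM gave 1, 0 and 0 called lower (all genes, 0.445, 0.0301 and 0.0385%), the called gene being HMGCS1 in MV411. There HMGCS1 was at 26.3 and 35.6 FPKM with GSK477 against 75.3 and 90.5 with DMSO, a fall of 1.42 ± 0.29 (adjusted p = 0.00532), and STARD4 fell by 1.01 ± 0.17 and ACAT2 by 0.74 ± 0.18. Neither day 2 group of these compounds had a called synthesis gene in any line. The share of all genes called in those groups is not given, so the absence of calls stands without one. By position alone, both GSK477 libraries of day 4 lay below both DMSO libraries for 17 of 19 synthesis genes in MV411 and 14 in THP1. In NOMO1 that day, they lay below for 0 and above for 14. On day 2 they lay below for 17 in MV411, 3 in THP1 and 16 in NOMO1. Such positions were not counted over all genes, so no share stands beside them.

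At the matched dose of 10000 nM on day 4, GSK032 and DAC were also compared with GSK477 in place of DMSO, which leaves out the DMSO libraries. Against GSK477, 8 of 19 synthesis genes were called lower with GSK032 in MV411 (all genes, 9.17%), 5 in THP1 (2.69%) and 8 in NOMO1 (2.5%). With DAC the counts were 14, 10 and 14 (all genes, 14.3, 5.58 and 8.38%). In MV411, where 15 had been called lower with GSK032 against DMSO, HMGCS1 was at −0.49 ± 0.29 against GSK477 (adjusted p = 0.162, 95% interval −1.07 to 0.10) and STARD4 at 0.06 ± 0.17 (adjusted p = 0.82), while ACAT2 fell by 1.82 ± 0.18 and DHCR7 by 1.47 ± 0.34. In NOMO1 HMGCS1 fell by 1.19 ± 0.14 with GSK032 and 3.04 ± 0.14 with DAC, and ABCA1 rose by 2.55 ± 0.14 and 1.95 ± 0.14.

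Fatty acid synthesis, which the sister factor of SREBP-2 drives, was read from a list of 13 genes outside the 29. With 400 nM DAC on day 4, 7 of 13 tested were called lower in MV411, 5 of 12 in THP1 and 7 of 13 in NOMO1 (all genes, 3.34, 1.93 and 5.94%), with 1 called higher in NOMO1 (ME1, malic enzyme; all genes, 13.2%). With GSK032 2, 1 and 0 were called lower (all genes, 2.76, 0.336 and 0.376%). The desaturase SCD had the largest DAC change in MV411, a fall of 3.52 ± 0.24, and was at 133 and 151 FPKM with DMSO, 79.2 and 42.0 with GSK032 and 12.7 and 11.1 with DAC. FADS2, another desaturase, and FASN, fatty acid synthase, fell with DAC in each line, FADS2 by 3.06 ± 0.34, 2.58 ± 0.16 and 2.01 ± 0.19 and FASN by 2.25 ± 0.20, 2.05 ± 0.17 and 2.04 ± 0.18 in the order MV411, THP1, NOMO1. With GSK032 in NOMO1 their values were 0.16 ± 0.19 (adjusted p = 0.694) and 0.07 ± 0.18 (adjusted p = 0.902).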

How the data were processed

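RNA of 156 libraries, 52 per cell line in 26 groups of 2, was sequenced as paired reads, per the labels' protocols. The FPKM values were made by the authors and deposited as 1 table per line. The submitters' processing notes name Salmon 0.12.0, DESeq2 and hg38, with no roles or settings stated. The scaling behind the FPKM values is not given in the sources used here, and their column sums differ. Read depth is unknown, so no counting intervals are given. The authors' deposited fold-change tables were not used.

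Columns were matched to samples by name, and 0 columns of per-sample values were left unmatched. In MV411, 4 libraries (GSK862 and GSK477 on day 4) have no replicate number of their own. Identifiers were named by GENCODE 29, which gave 56511 (94.3%) a symbol. Genes that reached 1 FPKM in 2 or more libraries of their line were kept (22007 in MV411, 23226 in THP1 and 20763 in NOMO1). Changes were computed on log2 values of the deposited FPKM plus a pseudocount of 0.5, with limma 3.58.1 in R 4.3.3. Each line was fitted alone with 26 group means, 26 residual degrees of freedom and a moderated variance trend. P-values were two-sided and adjusted by the Benjamini-Hochberg method over all genes of a comparison. The fitting steps were tested on simulated data. Sums of the marker lists add FPKM over the genes of a list.

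The members and lists, the motifs and the comparisons were chosen with earlier results of these data known. Values per library are given for all members of the regulator, transport and efflux groups and for 8 synthesis genes (ACAT2, HMGCS1, MVK, GGPS1, DHCR7, LSS, MSMO1 and TM7SF2), the 3 of each arm with the largest and the 1 with the smallest mean size of change over the lines with 400 nM DAC on day 4, and the other synthesis genes are given by range, apart from SQLE. Of the other lists, called members with the largest changes are named. HSD17B7, FDPS and CYP51A1 have close copies in the genome, between which reads may have been split. Alternatives were pseudocounts of 0.1 and 1, no filter, 2 rescalings, a fit of the 2 groups alone, a replicate block, no minimum fold and leaving out each library, with 1 added after seeing the data (leaving out DMSO libraries of day 6 in MV411).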

Additional observations from a re-analysis of the deposited data

Results flagged for a closer look

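The effect of 400 nM against DMSO differed between days 6 and 1 for a number of synthesis genes, by a limma contrast of the day 6 and day 1 effects with an adjusted p below 0.05 and a difference of at least 1 downwards. In MV411, 8 of 19 passed with GSK032 and 5 with DAC (all genes, 4.19 and 3.07%). The 2 DMSO libraries of day 6 stood apart there, and without replicate 2 both counts became 1. In THP1 1 passed with GSK032 and 6 with DAC (all genes, 0.586 and 2.52%). In NOMO1 1 passed with GSK032 and 13 with DAC (all genes, 0.737 and 8.03%). Most synthesis genes also rose with DMSO from day 1 to day 6 in NOMO1, as given above, and the contrast includes that change.

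ABCA1 moved in opposite directions in different lines after 4 days of 400 nM DAC, with both libraries on one side of DMSO each time. Its change was −1.53 in MV411, −1.07 in THP1 and 1.52 in NOMO1, and the difference between lines was not tested.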

How the results depend on the processing

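The counts of synthesis genes called lower at 400 nM on day 4 were recomputed under each alternative. With no minimum fold GSK032 gave 16 in MV411 and 16 in THP1 in place of 7 and 0 (all genes, 17.3 and 13.8%), and in NOMO1 still 0 (8.29%). DAC then gave 17, 16 and 18 in MV411, THP1 and NOMO1. Of all genes tested, 4187 of 22007, 4507 of 23226 and 5432 of 20763 were lower with DAC by that rule. The MV411 GSK032 count was 1 with libraries rescaled to equal sums, 4 after rescaling by median ratio and 4 with only the 2 groups fitted. Leaving out each library gave 1 to 14 for it (1 without GSK032 replicate 2, 14 without GSK032 replicate 1, 6 without either DMSO library), 0 to 1 for GSK032 in THP1 (1 without GSK032 replicate 2), 9 to 12 for DAC in THP1, and 15, 13 and 0 throughout for DAC in MV411, DAC in NOMO1 and GSK032 in NOMO1. A lone remaining library was assumed to vary like the other groups. The DAC count in THP1 was 15 with equal sums and 10 by median ratio, and in the other alternatives the counts moved by 1 at most.

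Libraries of the same replicate number deviated together only weakly. Deviations of same-numbered libraries from their group means correlated between groups at −0.2 to 0.42 in MV411 (median 0.08), −0.01 to 0.22 in THP1 (0.08) and −0.12 to 0.23 in NOMO1 (0.09). With the replicate block the counts were 7, 0 and 0 with GSK032 and 15, 12 and 13 with DAC in MV411, THP1 and NOMO1.

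Of 33 calls of genes with values per library, 5 were lost under some setting (HMGCS1, DHCR7, INSIG1 and ABCG1 with GSK032 in MV411, SREBF2 with DAC in NOMO1), and 0 reversed. The cause was not tested. Calls of ABCG1 are in these counts, although it passed the filter only through treated libraries. Leaving out libraries was run at 400 nM on day 4 and, chosen after seeing the data, for the DMSO libraries of day 6 in MV411. There the counts called lower on day 6 ranged from 4 to 12 with GSK032 and 8 to 15 with DAC, and those of the day 6 effect against the day 1 effect from 1 to 10 with either. FPKM without read depth leaves the counting error of low genes such as ABCG1 unknown.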

Other observations

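Genes beyond the members that share their metabolites were read in the same fits, at 400 nM on day 4. Of 7 genes of sterol esters and oxysterols, 6 were tested in each line. CYP27A1 makes an oxidised sterol that can activate LXR. In MV411 and NOMO1 it was below 1 FPKM in every DMSO library and entered the tests only through treated libraries, so that its changes there are given as a description. MV411 held 0.0720 and 0.0693 FPKM with DMSO, 0.362 and 0.412 with GSK032 and 1.27 and 2.06 with DAC. THP1 held 3.07 and 2.45 FPKM with DMSO, 3.86 and 3.12 with GSK032 and 7.01 and 5.91 with DAC. NOMO1 held 0.242 and 0.142 FPKM with DMSO, 0.345 and 0.492 with GSK032 and 5.39 and 7.36 with DAC. The DMSO libraries were below the DAC libraries in each line. In THP1 CYP27A1 rose with DAC by 1.1 ± 0.13, and by 1.71 ± 0.13 at 10000 nM, and was at 0.29 ± 0.13 (adjusted p = 0.108) with GSK032 at 400 nM. Its changes with DAC were 1.90 ± 0.17 in MV411 and 3.30 ± 0.22 in NOMO1, and with GSK032 0.64 ± 0.17 and 0.41 ± 0.22. OSBPL1A, an oxysterol-binding protein, was called lower in NOMO1 with DAC (a fall of 1.44 ± 0.10), and CH25H did not reach the level needed for a test in any line.

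Of 10 genes that use isoprenoids, 0, 0 and 2 were called lower with DAC in MV411, THP1 and NOMO1, where 3.34%, 1.93% and 5.94% of all genes were (PDSS1 and NUS1 in NOMO1, which act in making the side chain of ubiquinone and in making dolichol, by 1.60 ± 0.09 and 1.07 ± 0.10).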
